A study of Homo sapiens with 10 samples.

Results

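The lysosomal cathepsins CTSB, CTSD, CTSL, CTSZ, CTSH, CTSS, CTSC and CTSA and the cystatins CST3 and CSTB were examined as 10 genes in long-read RNA sequencing of 7 established ovarian cancer cell lines. Members were chosen by symbol alone: every transcript whose gene name, or any part of a joined gene name, was one of these symbols. This gave 36 transcripts of 99493 in the deposited annotation, and the 10 genes stand among 57110 gene identifiers. The COV362, COV504, OVKATE, OVMANA, OVTOKO and SK-OV-3 lines were each read as 1 library on the PromethION, a high-throughput nanopore sequencer. IGROV-1 was read as 2 PromethION and 2 MinION libraries, the MinION being a smaller nanopore device. All 10 libraries came from total RNA of cultured lines with no treatment or engineered allele named in the labels, and the study was made to benchmark software that quantifies transcripts. Each line other than IGROV-1 is 1 library, so its own spread between cultures was not measured.

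Cathepsins are proteases that are made as inactive precursors, carried to the lysosome largely by mannose 6-phosphate receptors, and activated in its acid interior. Most are cysteine proteases of the papain family (CTSB, CTSL, CTSZ, CTSH, CTSS and CTSC), while CTSD is an aspartic protease and CTSA a serine carboxypeptidase that also protects other lysosomal enzymes. Cystatins inhibit the cysteine cathepsins by filling the active-site cleft. CST3, cystatin C, is secreted, and CSTB, cystatin B, acts inside the cell. In tumours, cathepsins are known for degrading extracellular matrix when they are released from cells.

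Library totals ran from 1729782 to 3666224 counts, with a median of 2287873. Levels are in CPM, a gene's count relative to the total count of its library and not divided by length, with 95% exact Poisson intervals that cover counting error only. The mitochondrial ribosomal RNA share was 9.13% and 10.9% in the IGROV-1 PromethION libraries, 1.15% and 1.01% in the IGROV-1 MinION libraries, and 1.58% to 3.31% in the other lines. Leukocyte markers, a check because macrophages are a known source of CTSS in tissue, summed to between 0 and 17.6 CPM per library. CSF1R, TYROBP and AIF1 were at 0 in each line, PTPRC did not pass 0.445 CPM, and the largest leukocyte marker level was LAPTM5 at 16.0 CPM in OVMANA. Fibroblast markers summed to between 0.578 CPM in OVTOKO and 434 CPM in COV362. Epithelial markers summed to between 569 and 9682 CPM. On the PromethION, IGROV-1 had KRT7 and WT1 at 0, KRT8 at a mean of 5.78 CPM and EPCAM at a mean of 0.642. Its KRT18 was at 263 and 1041 CPM and its KRT19 at 140 and 176. OVTOKO had WT1 at 0, KRT19 at 0.578 CPM, EPCAM at 8.67 and KRT7 at 14.5, with KRT8 at 134 and KRT18 at 314. PAX8, a Müllerian lineage factor, was at least 84.1 CPM in each line.

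**Figure D1:**
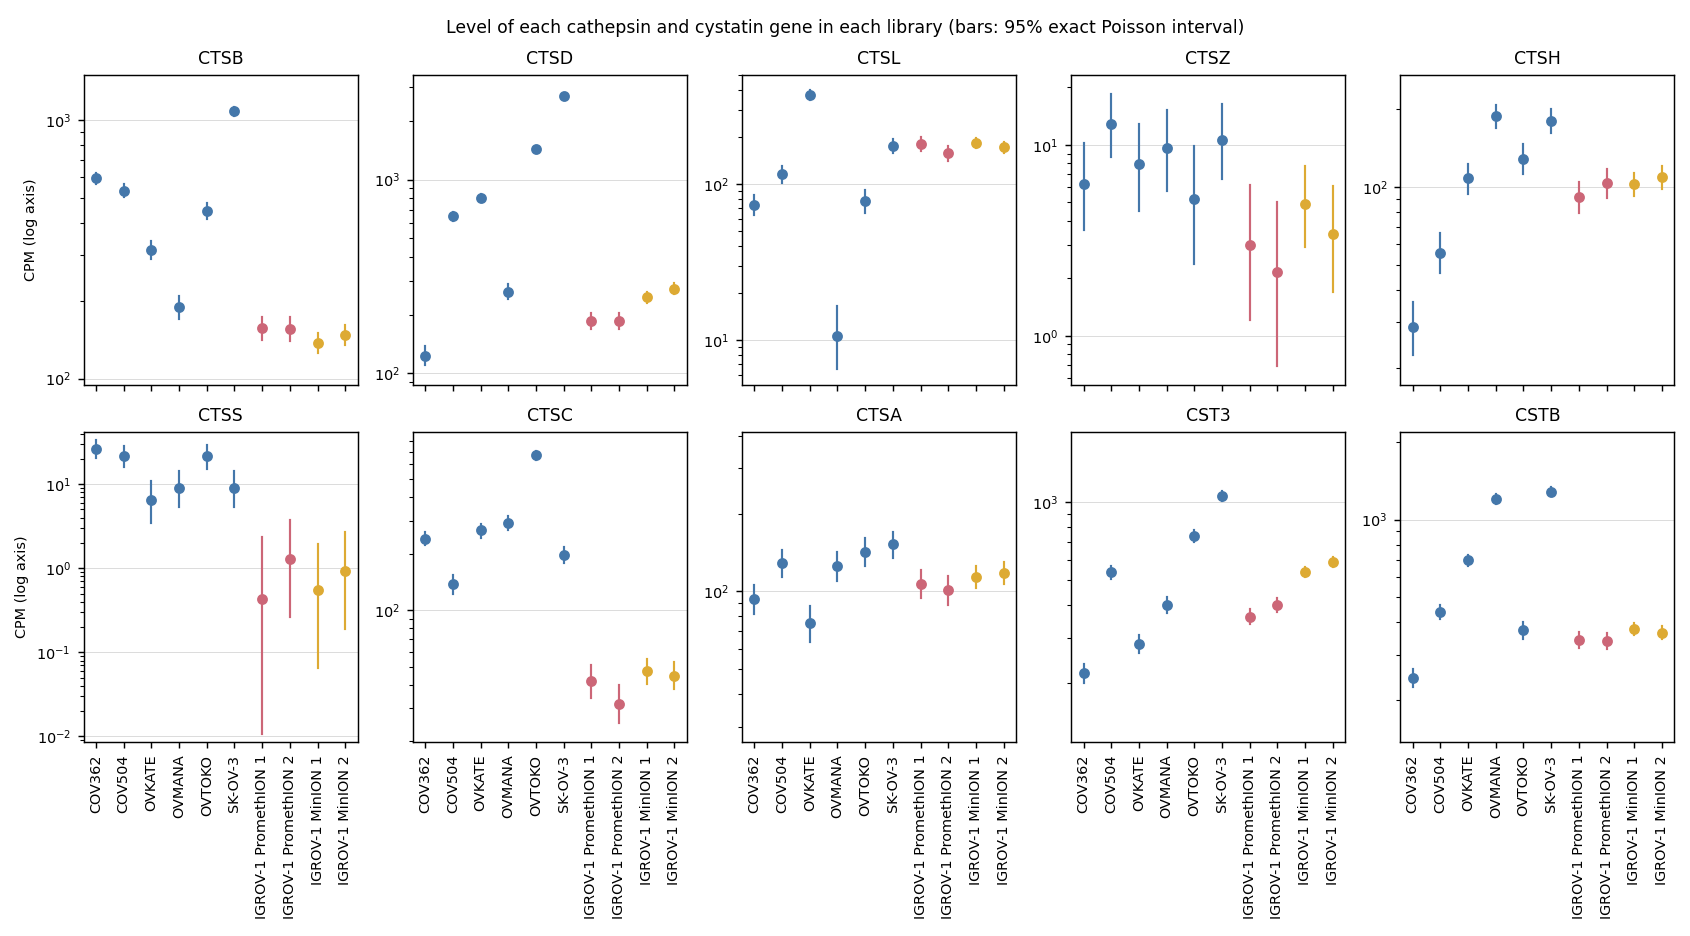
Level of each gene in each library, in CPM on a log axis whose range differs between panels. Points are libraries, bars are 95% exact Poisson intervals, blue marks the 6 lines with 1 library, red the IGROV-1 PromethION and yellow the IGROV-1 MinION libraries. CTSC and CTSS lie lower in the 4 IGROV-1 libraries than in every other line, and CTSL has its lowest point in OVMANA at 10.7 CPM.

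The 10 genes together took 0.684% of the counts in SK-OV-3, 0.404% in OVTOKO, 0.293% in OVKATE, 0.269% in OVMANA, 0.263% in COV504 and 0.165% in COV362. The IGROV-1 libraries were at 0.147% and 0.148% by PromethION and at 0.175% and 0.182% by MinION. In bulk libraries, the share of cells that express a gene and its RNA per cell cannot be told apart. SK-OV-3 held the highest CPM for 5 of the 10 genes (CTSB, CTSD, CTSA, CST3 and CSTB). With TMM-scaled library sizes the highest line became OVTOKO for CTSA and OVMANA for CSTB, while the other 8 kept theirs. COV362 and IGROV-1 each held the lowest level of 4 genes. Neighbouring lines in the order of each gene's levels were called separated where their Poisson intervals did not overlap and their ratio passed the ratio between the highest and lowest of the 4 IGROV-1 libraries. This held for 23 of 60 neighbouring pairs, so most steps did not exceed the spread within IGROV-1 over both instruments together with counting error. The ordered levels were all from the PromethION, so this spread includes an instrument difference that the steps do not. A pair not separated by this rule may still differ.

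The quasi-likelihood test of edgeR was run over 13030 genes, with Benjamini-Hochberg adjustment and a threshold of 0.05, each line against the same 2 IGROV-1 PromethION libraries. The 6 comparisons therefore share their controls, and the spread between samples comes from the IGROV-1 libraries. TMM scaling moved library sizes by between -0.13 in OVTOKO and 0.25 in OVKATE on the log2 scale. It thus raised CPM in OVTOKO and lowered it in OVKATE, and the fitted changes include that scaling. The median log2 change over all genes tested lay between -0.01 and 0.04.

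SK-OV-3 had 8 of 10 members higher than IGROV-1 and none lower, against 22% of all genes called higher, 19.8% called lower and 41.8% called in either direction. Fibroblast markers were also higher in SK-OV-3, with 3 of 3 tested called (COL1A1 at 219 CPM, COL1A2 at 57.2 and LUM at 52.7) and DCN and PDGFRB at or under 0.506 CPM. Their sum over 5 genes was 330 CPM in SK-OV-3, 434 in COV362 and 114 in COV504, where 1 and 2 of 3 were called higher, against 7.26 and 23.6 CPM in IGROV-1 PromethION. Their part in these counts was not tested.

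OVKATE had 6 members higher and 2 lower, against backgrounds of 26.8% and 22.4%, or 49.2% together. OVTOKO had 6 higher and 1 lower, against 18.2% and 15.9%, or 34.1% together. In OVMANA 6 were higher and 1 lower, against 18.9% and 16.5%, or 35.4% together. COV504 had 5 higher and 2 lower, against 24% and 19.6%, or 43.5% together. COV362 differed in direction, with 3 higher and 4 lower, against 23.7% and 18.8%, or 42.5% together. The median log2 change over the 10 members was 1.74 in SK-OV-3, 1.06 in OVTOKO, 1.05 in COV504, 0.78 in OVMANA, 0.78 in OVKATE and -0.27 in COV362. Of the 60 changes, edgeR called 44, and DESeq2 called 27, each of them among the 44. With DESeq2 the calls were 6 in COV362, 4 in COV504 and 4 in OVKATE, where it called 12.9%, 13.9% and 17.2% of all genes. They were 3 in OVMANA, 5 in OVTOKO and 5 in SK-OV-3, where it called 12.3%, 11.6% and 14.2% of all genes.

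**Figure D2:**
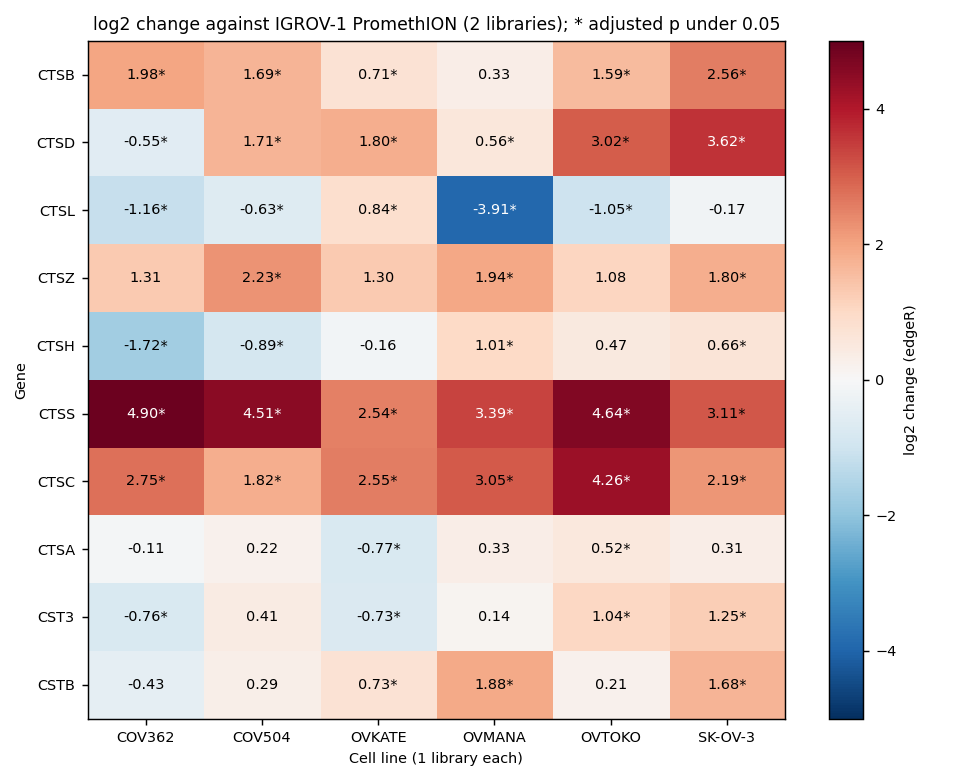
log2 change of each gene in each line against the 2 IGROV-1 PromethION libraries, from edgeR, with an asterisk where the adjusted p is under 0.05. CTSC and CTSS are called higher in each of the 6 lines, and the CTSL change of -3.91 in OVMANA is the lowest value.

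CTSC, dipeptidyl peptidase I, removes dipeptides from the amino end of proteins and is known for activating serine proteases of immune cells. It lies on the minus strand of chromosome 11 at 88293592 to 88337787 (GRCh38, ENSG00000109861). Its level was 670.0 CPM in OVTOKO, 292 in OVMANA, 266 in OVKATE, 241 in COV362, 198 in SK-OV-3 and 137 in COV504. In IGROV-1 it was 41.9 and 31.8 CPM on the PromethION and 47.2 and 44.8 CPM on the MinION. Every other line was thus above all 4 IGROV-1 libraries, and OVTOKO was set apart from the next line. The log2 change ran from 1.82 ± 0.20 (SE, adjusted p = 0.000183) in COV504 to 4.26 ± 0.19 (adjusted p = 2.6e-06) in OVTOKO. Each of the 6 CTSC calls was also made by DESeq2.

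CTSC was read as a full-length and a short form in all libraries. These names refer to the coding sequence and not to the RNA. The short form, ENST00000524463, has 4 exons in 6125 nt, and the full-length form, ENST00000227266, has 7 exons in 1921 nt. Whether RNA length bears on their shares was not tested. Both coding sequences share their first 318 nt, after which the full-length one runs to 1392 nt and the short one stops at 414 nt, stop codon included. In the full-length enzyme the catalytic residues lie in the part that the short form lacks. The bases around the point where they part are shown because the transcript shares below turn on it. The lower-case bases are the shared last 30 at chr11:88334937-88334966, and the capitals are the bases of each form alone, 5′ to 3′ on the minus strand. For the full-length form the capitals are the first 60 bases after that point, at chr11:88312495-88312554. For the short form they are the 96 bases to its stop codon, 85 in exon 3 at chr11:88328112-88328196 and 11 in exon 4 at chr11:88326433-88326443.
CTSC ENST00000227266: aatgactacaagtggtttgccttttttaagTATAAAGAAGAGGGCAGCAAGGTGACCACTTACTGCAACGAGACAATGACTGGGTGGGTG
CTSC ENST00000524463: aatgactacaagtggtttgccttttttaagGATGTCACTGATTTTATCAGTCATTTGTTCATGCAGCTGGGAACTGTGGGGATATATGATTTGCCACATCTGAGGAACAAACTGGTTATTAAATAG

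The short form took 8.78% of CTSC counts in OVMANA (95% Wilson interval 6.68% to 11.4%, 547 counts for the gene). Its share was 17.3% in OVTOKO (15.2% to 19.5%), 23.1% in OVKATE (19.7% to 26.8%), 25.4% in SK-OV-3 (21.3% to 29.9%) and 27.3% in COV504 (22.5% to 32.4%). COV362 had the highest share, 40.9% (37.1% to 44.8%, 614 counts). IGROV-1 had 35.7% and 35.1% on the PromethION and 33.5% and 32.4% on the MinION, from 74 to 173 counts. OVMANA lay below every other library without overlap of its interval, and the 4 IGROV-1 libraries lay within each other's intervals. As a level, the short form was 116 CPM in OVTOKO, 98.3 in COV362, 61.4 in OVKATE, 50.2 in SK-OV-3, 37.5 in COV504 and 25.6 in OVMANA, and 11.2 to 15.8 CPM in IGROV-1. It was thus highest in OVTOKO and lowest in IGROV-1, as the gene was, while OVMANA, next to OVTOKO in the gene's level, was the lowest of the 6 other lines in the short form.

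Transcript usage was tested with edgeR's diffSpliceDGE and Simes adjustment within genes over 4730 genes, of which 7 were members. CTSC usage differed between OVMANA and IGROV-1 PromethION (adjusted p = 0.00972), as 1 of 7 members tested, against 2.79% of all genes called in OVMANA. The call ended without either IGROV-1 PromethION library (adjusted p = 0.0981 without replicate 1 and 0.0756 without replicate 2) or either MinION library (0.102 and 0.126), and with PromethION libraries only (0.0831). CTSA usage differed in OVKATE (adjusted p = 0.0410), also 1 of 7, against 4.76% of all genes, and it ended in the same way: 0.218 and 0.205 without PromethION replicate 1 and 2, 0.131 and 0.141 without MinION replicate 1 and 2, and 0.118 with PromethION libraries only. At a minimum of 10 CPM per transcript, the adjusted p for CTSA in OVKATE was 0.937. By the Simes test, no member's usage was called in OVTOKO, SK-OV-3, COV362 or COV504, where 1.31%, 2.01%, 2.75% and 2.54% of all genes were called. Before adjustment, 2 members in OVTOKO, 3 in SK-OV-3, 2 in COV362 and 2 in COV504 had p under 0.05. The gene-level F test of diffSpliceDGE called 9 of the 42 member tests, the 2 above among them, and added CTSB in COV362, OVKATE and SK-OV-3, CTSC in OVTOKO, CST3 in COV362 and OVMANA, and CTSD in OVMANA. Per line it called 3 of 7 members in OVMANA against 6.6% of all genes, 2 in OVKATE against 10.8% and 2 in COV362 against 8.48%. It called 1 in OVTOKO against 4.74%, 1 in SK-OV-3 against 5.88%, and none in COV504 against 6.51%.

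**Figure D3:**
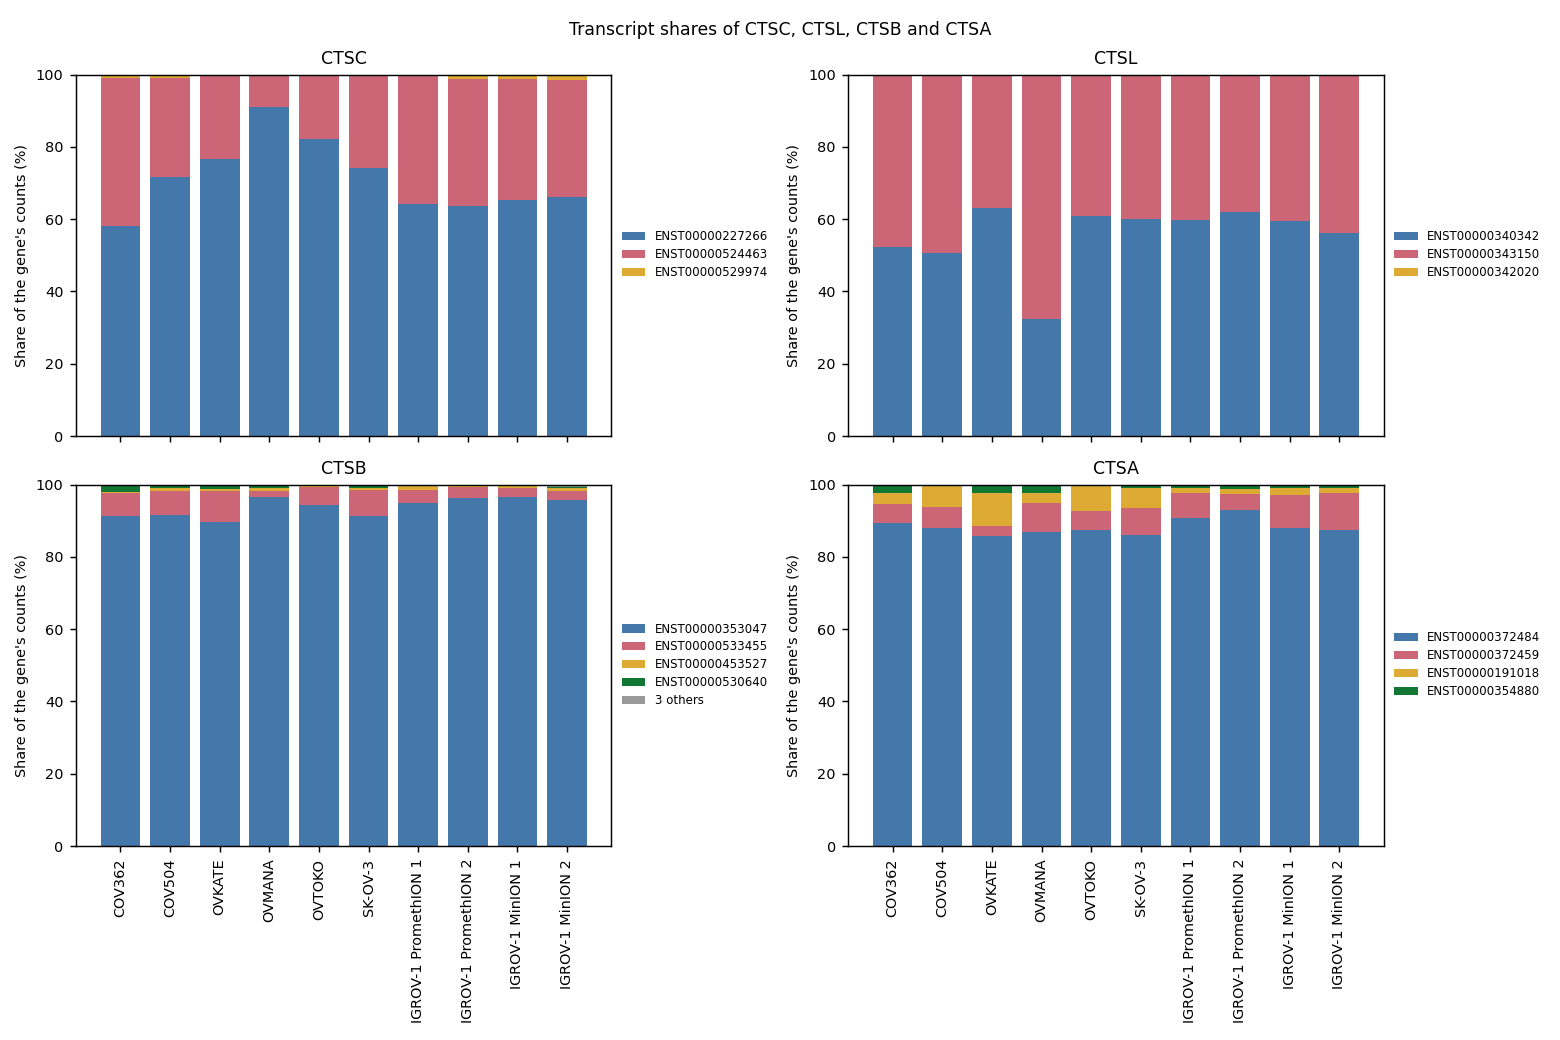
Share of each gene's counts taken by each transcript, in percent, for CTSC, CTSL, CTSB and CTSA in the 10 libraries. The short CTSC form is narrowest in OVMANA at 8.78% and widest in COV362 at 40.9%, and 1 CTSB transcript holds at least 89.7% in each library.

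CTSS, cathepsin S, is best known for trimming the invariant chain in antigen-presenting cells. It lies on the minus strand of chromosome 1 at 150730196 to 150765957 (ENSG00000163131). It gave 67 counts in COV362, 49 in COV504, 37 in OVTOKO, 18 in SK-OV-3, 17 in OVMANA and 13 in OVKATE. In IGROV-1 it gave 1 and 3 counts on the PromethION and 2 and 3 on the MinION, at or under 1.29 CPM. The other lines, at 6.43 to 26.2 CPM, lay above the 4 IGROV-1 libraries in their point values. The interval of OVKATE (3.42 to 11.0 CPM) overlapped that of IGROV-1 PromethION replicate 2 (0.266 to 3.77 CPM). Against the 4 counts pooled over the IGROV-1 PromethION libraries, the ratio in COV362 was 30.6 (95% exact binomial interval 11.4 to 116) and in OVKATE 7.51 (2.32 to 31.6). The edgeR log2 changes ran from 2.54 ± 0.68 (SE, adjusted p = 0.0148) in OVKATE to 4.90 ± 0.48 (adjusted p = 0.000131) in COV362. With DESeq2 the calls in OVKATE, OVMANA and SK-OV-3 ended (adjusted p = 0.223, 0.0915 and 0.122). In edgeR the OVKATE call ended without IGROV-1 PromethION replicate 1, at a log2 change of 1.97 (adjusted p = 0.0530), and without MinION replicate 1 (adjusted p = 0.0507). The summed leukocyte markers were 17.6 CPM in OVMANA, 8.61 in SK-OV-3, 5.20 in OVTOKO, 4.45 in COV504, 3.96 in OVKATE and 3.53 in COV362, and at or under 0.309 CPM in the 4 IGROV-1 libraries, so they were lowest where CTSS was lowest. Among the 6 other lines OVMANA, with the highest sum, was near the low end of CTSS, and COV362, with the lowest sum, had the most CTSS. The part of these markers in the CTSS levels was not tested.

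CTSD, the main aspartic protease of the lysosome, lies on the minus strand of chromosome 11 at 1752752 to 1763992 (ENSG00000117984). The deposited annotation joins it with IFITM10, which encodes an interferon-induced transmembrane protein family member, and the readthrough gene AC068580.4 in 1 entry of 9 transcripts, 6 of which GENCODE assigns to CTSD. The entry stood at 2691 CPM in SK-OV-3, 1433 in OVTOKO, 804 in OVKATE, 647 in COV504, 264 in OVMANA and 123 in COV362. IGROV-1 had 188 and 186 CPM on the PromethION and 247 and 273 on the MinION. SK-OV-3 and OVTOKO were each set apart from the next line, and the highest line stood 21.8 times above the lowest. The log2 change was 3.62 ± 0.14 in SK-OV-3 (SE, adjusted p = 2.23e-06), 3.02 ± 0.14 in OVTOKO, 1.80 ± 0.14 in OVKATE and 1.71 ± 0.14 in COV504. In OVMANA it was higher by 0.56 ± 0.15 (adjusted p = 0.0201), and in COV362 the level fell by 0.55 ± 0.16 (adjusted p = 0.0229). DESeq2 called neither of these last changes (adjusted p = 0.0871 and 0.213). In edgeR both ended without IGROV-1 PromethION replicate 1 (adjusted p = 0.0964 and 0.0968), PromethION replicate 2 (0.103 and 0.0974) and MinION replicate 1 (0.0532 and 0.0510), and the COV362 call also without MinION replicate 2 (0.0505).

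Within the joined entry ENST00000236671, a 2123-nt CTSD transcript with 9 exons, took 96.3% to 99.7% of the counts, so nearly all of the entry was CTSD. Its neighbours were low and also highest in SK-OV-3 and OVTOKO. The readthrough AC068580.4 was 38.7 CPM in SK-OV-3, 32.7 in OVTOKO, 15.0 in OVKATE, 5.65 in COV504 and 0.606 in COV362. IFITM10 was 15.8 CPM in SK-OV-3, 14.9 in OVTOKO and 9.35 in OVKATE, and at 0 in OVMANA, where 3 counts would be 1.60 CPM. With the CTSD transcripts alone, an alternative chosen after seeing the data, all 6 CTSD calls held.

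CTSB, a cysteine endopeptidase that also acts as a dipeptidyl carboxypeptidase, lies on the minus strand of chromosome 8 at 11842524 to 11868229 (ENSG00000164733). It reached 1081 CPM in SK-OV-3, 596 in COV362, 533 in COV504, 447 in OVTOKO, 314 in OVKATE and 189 in OVMANA. IGROV-1 had 156.3 and 155.9 CPM on the PromethION and 138 and 147 on the MinION, below every other line. Each step in this order was separated except that from COV362 to COV504. The log2 change was 2.56 ± 0.14 in SK-OV-3 (SE, adjusted p = 7.12e-06), 1.98 ± 0.14 in COV362, 1.69 ± 0.14 in COV504, 1.59 ± 0.14 in OVTOKO and 0.71 ± 0.15 in OVKATE. In OVMANA it was 0.33 ± 0.15, which did not pass (adjusted p = 0.123). In COV362, where CTSD, CTSL, CTSH and CST3 were called lower than in IGROV-1, CTSB was below SK-OV-3 alone.

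CTSB had 7 transcripts in the annotation, and all 7 hold the same coding sequence of 1020 nt with the stop codon, so they differ in their untranslated ends. ENST00000353047, of 3875 nt and 10 exons, took 89.7% to 96.5% of CTSB counts over the 10 libraries. ENST00000533455, of 2009 nt and 11 exons, came next at 1.74% in OVMANA, 2.59% to 3.49% in IGROV-1, 5.14% in OVTOKO, 6.25% in COV362, 6.79% in COV504, 7.2% in SK-OV-3 and 8.40% in OVKATE. The remaining 5 transcripts did not reach 2% in any library. By the Simes test, usage of CTSB was called in no line, with the lowest adjusted p, 0.0547, in COV362. By the gene-level F test it was called in COV362, OVKATE and SK-OV-3 (adjusted p = 0.0203, 0.0231 and 0.0480).

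CTSL, a potent cysteine endopeptidase, lies on the plus strand of chromosome 9 at 87725519 to 87731392 (ENSG00000135047), and spanned 34.8 times between lines in CPM. CTSS spanned 30.6 times, and with TMM-scaled library sizes the spans were 27.1 times for CTSL and 31.5 times for CTSS. It was 372 CPM in OVKATE, 176 in SK-OV-3, 115 in COV504, 77.5 in OVTOKO, 73.3 in COV362 and 10.7 in OVMANA, where 20 counts were read. In IGROV-1 it was 181 and 157 CPM on the PromethION and 184 and 172 on the MinION. OVKATE and OVMANA were each separated from their neighbours in the order, and SK-OV-3 and IGROV-1 were not separated. Relative to IGROV-1 on the log2 scale, CTSL fell by 3.91 ± 0.26 (SE, adjusted p = 1.87e-05) in OVMANA and by 1.16 ± 0.19 (adjusted p = 0.00161) in COV362, and was higher by 0.84 ± 0.16 in OVKATE (adjusted p = 0.00334). It also fell by 1.05 ± 0.19 (adjusted p = 0.00382) in OVTOKO and by 0.63 ± 0.18 in COV504 (adjusted p = 0.0214). DESeq2 did not call OVKATE, OVTOKO or COV504 (adjusted p = 0.0682, 0.0727 and 0.424). In edgeR the COV504 call also ended without IGROV-1 PromethION replicate 1 (0.0762), MinION replicate 1 (0.0556) and MinION replicate 2 (0.0543).

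CTSL was read almost wholly as 2 transcripts, both with the same 1002-nt coding sequence. ENST00000343150 has 890 nt before its start codon and ENST00000340342 has 155 nt. The form with the longer leader took 36.8% to 49.3% of CTSL counts in 9 libraries and 67.7% in OVMANA, where the gene was lowest. That last share rests on 20 counts, and usage of CTSL was not called there (adjusted p = 0.485).

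CTSH, an aminopeptidase, lies on the minus strand of chromosome 15 at 78921058 to 78945091 (ENSG00000103811). It was 188 CPM in OVMANA, 180.3 in SK-OV-3, 128 in OVTOKO, 108 in OVKATE, 55.6 in COV504 and 28.6 in COV362, and in IGROV-1 91.4 and 104 on the PromethION and 102 and 109 on the MinION. COV362 and COV504 were below all 4 IGROV-1 libraries and separated from each other. CTSH fell by 1.72 ± 0.20 on the log2 scale in COV362 (SE, adjusted p = 0.000308) and by 0.89 ± 0.18 in COV504 (adjusted p = 0.00503), and was higher by 1.01 ± 0.16 in OVMANA (adjusted p = 0.00181) and 0.66 ± 0.16 in SK-OV-3 (adjusted p = 0.0116). With DESeq2 COV362 alone was called, with adjusted p = 0.229 in COV504, 0.0645 in OVMANA and 0.277 in SK-OV-3. The SK-OV-3 call in edgeR ended without IGROV-1 PromethION replicate 1 (adjusted p = 0.0568). CTSH was read as 1 transcript, ENST00000220166, with under 0.01 estimated counts on the other in each library.

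CTSZ, a carboxypeptidase, lies on the minus strand of chromosome 20 at 58995185 to 59007247 (ENSG00000101160) and was low in every line. It gave 29 counts in COV504, 21 in SK-OV-3, 18 in OVMANA, 16 in OVKATE, 16 in COV362 and 9 in OVTOKO, or 5.20 to 12.9 CPM. IGROV-1 had 3.0 and 2.1 CPM on the PromethION, from 12 counts in both, and 4.9 and 3.4 CPM on the MinION. None of the 6 neighbouring pairs in the order was separated. The ratio to the pooled IGROV-1 PromethION counts was 5.02 in COV504 (95% exact binomial interval 2.48 to 10.8) and 2.02 in OVTOKO (0.753 to 5.24). edgeR called COV504 (log2 change 2.23 ± 0.48, adjusted p = 0.00634), OVMANA (1.94 ± 0.53, adjusted p = 0.0221) and SK-OV-3 (1.80 ± 0.52, adjusted p = 0.0224), and DESeq2 called none of these (adjusted p = 0.364, 0.488 and 0.503).

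CTSA, the protective protein that holds beta-galactosidase and neuraminidase in a complex, lies on the plus strand of chromosome 20 at 45891044 to 45898820 (ENSG00000064601), and varied least. It was 152 CPM in SK-OV-3, 142 in OVTOKO, 129 in COV504, 126 in OVMANA, 93.6 in COV362 and 75.2 in OVKATE. IGROV-1 had 107 and 101 CPM on the PromethION and 114 and 118 on the MinION. No neighbouring pair was separated, and the highest line stood 2.02 times above the lowest. CTSA fell by 0.77 ± 0.17 on the log2 scale in OVKATE (SE, adjusted p = 0.00587) and was higher by 0.52 ± 0.16 in OVTOKO (adjusted p = 0.0335). DESeq2 called neither (adjusted p = 0.272 and 0.469). The OVTOKO call ended in edgeR when any 1 of the IGROV-1 libraries was left out: 0.0753 and 0.131 without PromethION replicate 1 and 2, and 0.0699 and 0.0553 without MinION replicate 1 and 2. It also ended with no filter on low counts (0.0666) and with PromethION libraries only (0.0517).

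CTSA counts fell mostly on ENST00000372484, at 85.8% to 93.0%. ENST00000372459 took 8.06% of them in OVMANA, 7.39% in SK-OV-3, 5.75% in COV504, 5.48% in COV362, 5.35% in OVTOKO and 2.84% in OVKATE, and in IGROV-1 6.99% and 4.47% on the PromethION and 9.19% and 10.2% on the MinION. OVKATE was thus lowest in this transcript and highest in the next one. ENST00000191018 took 9.16% of CTSA counts in OVKATE (95% Wilson interval 5.57% to 14.9%), 6.89% in OVTOKO, 5.98% in COV504, 5.52% in SK-OV-3, 2.83% in COV362 and 2.74% in OVMANA. In IGROV-1 it took 1.27% and 1.32% on the PromethION and 2.00% and 1.40% on the MinION, from 3.13 to 8.33 estimated counts. The annotated coding sequence of ENST00000372484 has 1494 nt and that of ENST00000191018 has 1440 nt, without their stop codons.

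CST3, the secreted cystatin C, lies on the minus strand of chromosome 20 at 23626706 to 23638473 (ENSG00000101439). Its level was 1062 CPM in SK-OV-3, 742 in OVTOKO, 536 in COV504, 401 in OVMANA, 284 in OVKATE and 218 in COV362. IGROV-1 had 362 and 401 CPM on the PromethION and 537 and 589 on the MinION. That span over both instruments left no neighbouring pair separated, although the ordered levels were from the PromethION alone. CST3 was higher by 1.25 ± 0.15 on the log2 scale in SK-OV-3 (SE, adjusted p = 0.000331) and by 1.04 ± 0.15 in OVTOKO (adjusted p = 0.00116). It fell by 0.76 ± 0.16 in COV362 (adjusted p = 0.00600) and by 0.73 ± 0.16 in OVKATE (adjusted p = 0.00606), and DESeq2 did not call OVKATE (adjusted p = 0.0692). In COV504 the change of 0.41 ± 0.15 did not pass (adjusted p = 0.0558), and it passed with RLE scaling (0.0304) and without the mitochondrial ribosomal RNA genes (0.0352).

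CSTB, the intracellular cystatin B, lies on the minus strand of chromosome 21 at 43772511 to 43776445 (ENSG00000160213). It was 1282 CPM in SK-OV-3, 1202 in OVMANA, 695 in OVKATE, 440 in COV504, 373 in OVTOKO and 245 in COV362. IGROV-1 had 342 and 340 CPM on the PromethION and 379 and 365 on the MinION. SK-OV-3 and OVMANA were not separated from each other, and both stood apart from OVKATE. CSTB was higher by 1.88 ± 0.15 on the log2 scale in OVMANA (SE, adjusted p = 4.27e-05), by 1.68 ± 0.15 in SK-OV-3 (adjusted p = 7.23e-05) and by 0.73 ± 0.15 in OVKATE (adjusted p = 0.00444). All 3 calls were also made by DESeq2. CST3 and CSTB thus did not share a line order: OVTOKO was above OVMANA in CST3 and below it in CSTB. Each was read almost wholly as 1 transcript, at 97.5% or more for CST3 (ENST00000376925) and 98.4% or more for CSTB (ENST00000291568).

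On a scale that assumes counts rise with transcript length, which was not tested, the CPM of each transcript was divided by its own length. The results were summed per gene. For CTSD, only its own transcripts were used. On this scale the median over lines was highest for CST3, at 459 CPM per kb, followed by CTSD at 302, CSTB at 203, CTSB at 122 and CTSC at 92.0. CTSL stood at 66.8 CPM per kb, CTSA at 59.3, CTSH at 49.2, CTSZ at 5.29 and CTSS at 2.22. Both cystatins were on this scale above all cathepsins but CTSD, and CTSZ and CTSS stood far below the other 8 genes. The division raises genes with short transcripts: the mean length weighted by counts was 902 nt for CST3 and 3734 nt for CTSB. In CPM not divided by length, CTSB was above both cystatins in COV362, below both in OVMANA and IGROV-1, and between them in the other lines. The order of CTSB and the cystatins thus depended on the division.

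The sequencing instruments were compared within IGROV-1, with the 2 MinION against the 2 PromethION libraries in edgeR. None of 8 members tested was called, against 0.817% of 10041 genes. That fit did not pair libraries of equal replicate number. A fit that did, described at the end, called CST3 and CTSD, against 19.7% of all genes. CTSS and CTSZ did not pass the filter on low counts. Before adjustment 2 members had p under 0.05, and DESeq2 called none of 9 tested, against 0.552% of all genes. The largest differences were CST3, at 563 ± 36.2 CPM on the MinION (SD, n = 2) against 381 ± 27.6 on the PromethION, and CTSD, at 260 ± 18.4 against 187 ± 1.08. Their log2 changes were 0.52 ± 0.12 (SE, adjusted p = 0.107) and 0.44 ± 0.12 (adjusted p = 0.135), and in both genes the MinION libraries did not overlap the PromethION libraries. The mitochondrial ribosomal RNA share, given above, was lower in the MinION libraries. Without those RNAs the changes were 0.52 for CST3 (adjusted p = 0.102) and 0.44 for CTSD (adjusted p = 0.129). The other 6 changes lay between -0.17 and 0.28. Usage was called for none of 6 members tested by diffSpliceDGE, against 5.91% of 2979 genes, with no member at an unadjusted p under 0.05.

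**Figure D4:**
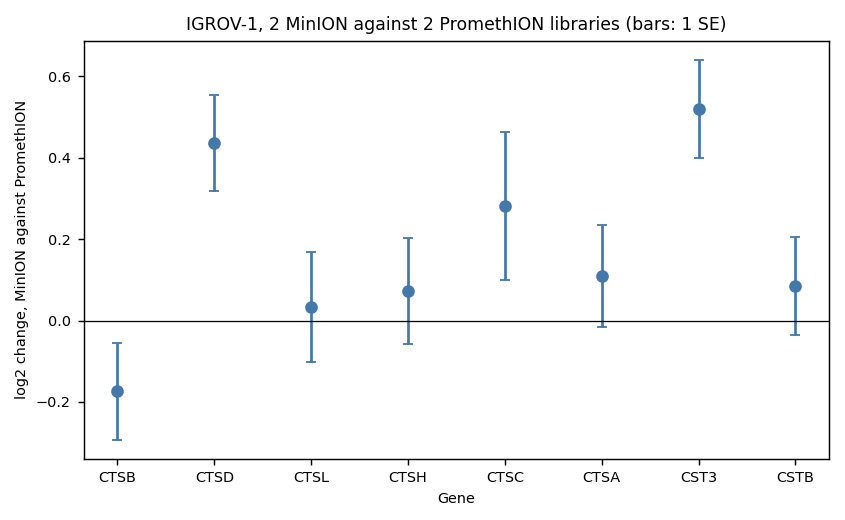
log2 change of the 8 genes tested, 2 MinION against 2 PromethION libraries of IGROV-1, from edgeR with bars of 1 SE. CST3 at 0.52 and CTSD at 0.44 lie highest and CTSB at -0.17 lowest, and none had an adjusted p under 0.05 in this unpaired fit.

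Other lysosomal proteases, from a list of 11 genes of which 8 could be tested against IGROV-1, went in both directions. For this list and those below, the background by line was 18.2% to 26.8% of all genes called higher and 15.9% to 22.4% called lower. The number higher and lower was 4 and 3 in OVKATE, 2 and 3 in SK-OV-3, COV362 and COV504, and 1 and 4 in OVMANA and OVTOKO. NAPSA, napsin A, an aspartic protease known as a marker of clear cell carcinoma, stood at 1739 CPM in OVMANA. It was at or under 1.48 CPM in every other line, with 0.578 in OVTOKO and 0 in COV362. CTSV, cathepsin V, the close relative of CTSL, was 337 CPM in OVKATE, where CTSL was also highest, and 6.58 in SK-OV-3. CTSK, the bone-resorbing cathepsin K, was highest in IGROV-1, at 15.4 and 14.2 CPM on the PromethION, and was called lower in each of the other lines. CTSO was 25.4 CPM in OVTOKO and 1.07 in OVMANA.

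Of 11 other cystatins and protease inhibitors, 4 could be tested, and the others were near or at 0. SERPINB6, an intracellular serine protease inhibitor, was higher in each of the 6 lines than in IGROV-1, from a log2 change of 1.21 in OVKATE to 3.59 in SK-OV-3. SERPINB1, a related inhibitor, was higher in OVMANA, SK-OV-3, COV362 and OVTOKO, with log2 changes from 0.69 to 1.75, and lower in OVKATE. CST6, cystatin E/M, was 737 CPM in OVKATE and at 0 in OVMANA. The number higher and lower was 3 and 0 in SK-OV-3 and COV362, 2 and 1 in OVKATE, and 2 and 0 in OVMANA, OVTOKO and COV504.

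Lysosomal membrane genes were higher for 6 of 6 tested in SK-OV-3 and 5 of 6 in OVTOKO, against 22% and 18.2% of all genes. Their median log2 change was 1.07 in SK-OV-3 and 1.13 in OVTOKO. These 2 lines also had the highest CTSD. The number higher was 2 in COV504, and 1 in OVMANA, OVKATE and COV362, with 1 lower in OVKATE and in COV362. LAMP1, a main glycoprotein of the lysosomal membrane, was 316 CPM in SK-OV-3 and 74.8 in COV362. NPC1, the cholesterol exporter of the lysosome, was higher by a log2 change of 2.33 in OVTOKO and 1.34 in SK-OV-3. SCARB2, the receptor that carries glucocerebrosidase to the lysosome, was higher by 1.43 and 1.33 in these lines, and TMEM192 was highest in COV362, at 96.4 CPM.

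Cathepsin partners and other lysosomal hydrolases, 10 of 10 tested, were 2 higher and 5 lower in SK-OV-3, the line with 8 members higher. The counts higher and lower were 4 and 0 in OVTOKO, 2 and 4 in COV362, 1 and 5 in OVKATE, 1 and 4 in COV504, and 1 and 2 in OVMANA. GLB1, the beta-galactosidase that CTSA protects, was lower in OVKATE (log2 change -2.38), COV504 (-1.44), OVMANA (-1.38), COV362 (-1.32) and SK-OV-3 (-1.31). GAA, the acid alpha-glucosidase, was higher in OVKATE, OVTOKO and SK-OV-3. LIPA, lysosomal acid lipase, was higher in COV362 and OVTOKO and lower in OVKATE and SK-OV-3.

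Sorting genes, 6 of 6 tested, split evenly in OVKATE and SK-OV-3, with 2 higher and 2 lower in each. In COV504 2 were higher and none lower, in OVTOKO 1 and none, and in OVMANA and COV362 1 and 1. M6PR, the cation-dependent mannose 6-phosphate receptor, was lower in OVKATE (log2 change -2.10) and SK-OV-3 (-1.52). IGF2R, the cation-independent receptor, was 132 CPM in SK-OV-3 and 22.3 in OVKATE. GNPTAB, which makes the mannose 6-phosphate tag, was higher in OVMANA (1.51) and lower in COV362 (-1.11) and SK-OV-3 (-1.10).

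Of 6 subunits and partners of the proton pump that acidifies the lysosome, 3 were lower in COV362, 2 were lower and 1 higher in SK-OV-3, and 1 of each was called in OVKATE and COV504. In OVMANA 1 was higher, ATP6V1A, the catalytic subunit, by a log2 change of 1.29, and in OVTOKO no V-ATPase gene was called by edgeR. Of 3 transcription factors that drive lysosomal genes, MITF was highest in IGROV-1, at a mean of 144 CPM on the PromethION, and called lower in each of the other lines, with log2 changes from -1.62 in OVTOKO to -6.13 in OVKATE. TFEB, the best known of them, was 16.7 CPM in SK-OV-3 and called higher there by 2.86, and TFE3 was lower in OVKATE and COV504. In the comparison of instruments no gene of these lists was called.

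The factors of that family bind the letters CACGTG, so promoters were read for this motif. RefSeq promoters (GRCh38.p14), 250 bases before to 50 after the start site, were matched for 7 of the 10 members. CACGTG, which reads the same on both strands, was in 2 of the 7, CTSA and CTSD, against 7.26% of 35116 promoters. It was in 12 of 53 promoters (22.6%) of the genes in the lists above, which include protease inhibitors and the transcription factors themselves. The longer TCACGTGA, which contains it, was in CTSA alone of the 7, against 0.98% of all promoters. The matches lie before the RefSeq start site of both genes, but inside exon 1 of the GENCODE transcript that took most of their counts, whose start is farther upstream. CTSD and CTSA, the 2 genes with a match, had different ranges over lines, 21.8 and 2.02 times between highest and lowest.

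Likeness between genes was described by Pearson's r of log2(CPM + 1) over the 7 lines, with no test, since all genes are read in the same libraries and 7 points are few. Among members, CTSA and CST3 were most alike (r = 0.87), then CTSD and CST3 (0.83) and CTSH and CSTB (0.80). CTSS was most like CTSC (0.73), and the lowest r was -0.39 between CTSS and CTSH. CTSL had no member above 0.36. Over the 8813 genes whose mean reached 10 CPM, CTSD was most like MSX1 (0.99) and SCARB2 (0.97), CTSC most like UBE3B and MZT2B (both 0.96), and CTSB most like SH2B3 (0.98) and SLFN5 (0.97). CTSL was most like MBNL2 (0.98) and PCYOX1L (0.97), CTSS like ACAT2 and DCBLD2 (both 0.97), CTSA like LDHA and DESI1 (both 0.98), CTSH like CRYZL1 (0.99) and EBNA1BP2 (0.97), and CTSZ like MZT1 (0.98) and KRR1 (0.97). For the cystatins, CST3 was most like ABHD13 (0.98) and VPS36 (0.96), and CSTB most like MAP2K2 (0.95) and ATG101 (0.94).

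Of the 36 member transcripts, 32 had at least 1 count in some library and 4 were under 1 count in all. A library held between 23 and 29 of them at 1 count or more, with a median of 25.5.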

How the data were processed

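The samples were 10 nanopore libraries of cultured ovarian cancer lines. RNA was isolated on columns and prepared with a ligation kit, per the labels' protocols. The authors deposited estimated counts per transcript, which need not be whole, and values in files named for TPM, which equal CPM of those counts (not divided by length). GRCh38 and minimap2 2.24-r1122 are named in the submitters' processing notes, with no role given there. Whether counting used strand is not given in the sources used here. Transcripts were summed per gene and the sums rounded for count tests. The joined CTSD entry was kept whole. edgeR 4.0.16 (TMM, filterByExpr, quasi-likelihood test, Benjamini-Hochberg over all genes tested) was run on all 10 libraries for the lines (2 residual degrees of freedom) and on the 4 IGROV-1 libraries for the instruments. DESeq2 1.42.0 was an alternative. Coordinates are from GENCODE 29. Nothing says that the IGROV-1 libraries came from separate cultures, so p-values may measure technical spread. On simulated counts, a line comparison of single genes recovered 29.0% of genes changed by 1 on the log2 scale and 94.5% of those changed by 2. There 200 of 11771 genes were changed, in every group but IGROV-1 PromethION. In the data 34.1% to 49.2% of genes were called by line, so recovery there may differ. The members and gene lists were chosen with earlier results of these data known. Transcripts were named at 5% or more of a gene's counts in a library with at least 50 counts of that gene, with CTSL in OVMANA named below it after its values were seen. Up to 4 genes per list were named by the ratio between highest and lowest line, among genes reaching 10 CPM (1 gene so chosen is not reported here), and the 2 most alike genes were named by Pearson's r.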

Additional observations from a re-analysis of the deposited data

How the results depend on the processing

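Against 44 line calls in the reported fit, 46 were made with RLE scaling and 46 without the mitochondrial ribosomal RNA genes, 43 with no filter, 43 with PromethION libraries only, 38 without joined genes (CTSD left out) and 27 with DESeq2. Leaving out 1 IGROV-1 library gave 38 to 41. No shared call changed sign in these fits. Usage calls in lines numbered 2, and were 9 with the gene F test, 0 with PromethION libraries only, and 0 with any 1 IGROV-1 library left out. The cause was not tested.

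Between instruments no member was called in any alternative except the fit with the replicate block, which called 2, CST3 (adjusted p = 3.95e-12) and CTSD (9.46e-07), against 19.7% of all genes called with the block. With 1 IGROV-1 library left out, 2 small instrument changes turned sign: CTSH ranged from -0.014 (without PromethION replicate 1) to 0.16, and CTSL from -0.064 (without PromethION replicate 2) and -0.057 (without MinION replicate 1) to 0.14. The labels do not say that equal replicate numbers mark shared material; deviations of same-numbered libraries correlated at r = 0.416 over 8717 genes. In the usage test the block called 0 of 6 members. The median ratio between highest and lowest line was 6.74, 6.45 without mitochondrial ribosomal RNA and 6.28 with TMM library sizes. With a minimum of 5 counts the median number of member transcripts per library was 19. Depth limits CTSS and CTSZ most, since 3 counts are 0.818 to 1.73 CPM.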
